A study of Mus musculus with 12 samples.

Results

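The axonal transcriptome described here was measured in 6 libraries of total RNA, taken from the axonal side of primary mouse motoneuron cultures with a knockdown of Smn. The 6 were chosen by their titles, out of 12 libraries in the series, and 22736 protein-coding genes of 39174 listed genes were read from each. All cultures had the CD-1 strain background and were grown in microfluidic chambers, in which axons grow through fine channels into a side free of cell bodies. How Smn was knocked down is not given in the labels, every library carries the knockdown, and libraries of unperturbed neurons and of the somatodendritic side were not used here. Whether each replicate was its own culture is not given either, so the spread between replicates may be technical. With a single group, no comparison was tested, and all values are descriptions of these 6 libraries.

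Axons hold a population of messenger RNAs that are carried out from the cell body along microtubules and translated locally. Messages for ribosomal proteins, mitochondrial enzymes, actin and the growth cone are known from axons of many neuron types. SMN, the protein made by Smn1, assembles the Sm proteins of splicing particles and also travels in axons with RNA-binding proteins. Mitochondria move along axons with their own genome, whose messages are copied inside the organelle.

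The deposited FPKM (fragments per transcript length and sequencing depth) were divided by a factor for each library, set so that the nuclear protein-coding genes above 0 in all 6 libraries had the same median ratio. These values are called scaled FPKM, and each is per length, so that levels of different genes can be set side by side. Smn1, the targeted gene, was listed at 7.87, 15.1, 0, 6.75, 50.3 and 5.62 scaled FPKM in replicates 1 to 6. It was thus listed at 0 in replicate 3 and was highest in replicate 5, and with no unperturbed library here the depth of the knockdown cannot be read from these values. The step of a single read implied 218294 to 729492 reads a library, the most in replicate 1 and the fewest in replicate 3.

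The cultures' label was checked against marker genes. All 16 of 16 pan-neuronal markers had an FPKM of at least 1 in every library, among them 354 ± 103 (SD, n = 6) scaled FPKM for Tubb3, the neuronal beta tubulin, and 241 ± 87.9 for Map2, a protein of the dendritic microtubules. Of 17 markers of cholinergic motoneurons, 2 reached that level in all 6 libraries. These were Slit2, a guidance ligand, and Ache, the enzyme that breaks down acetylcholine, and neither is restricted to motoneurons. Chat, which makes acetylcholine, and the motoneuron transcription factor Mnx1 were listed at 0 in all 6 libraries, Slc5a7, which takes up choline, stayed below 1, and Isl1 was above 0 only in replicate 2. The defining motoneuron messages were therefore at or near 0, and the libraries are called here by their compartment.

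Replicates 1 and 2 stood apart from the other 4 in make-up. They held most of the reads of 12 genes that share a repeated sequence, and they listed 131 and 278 olfactory and vomeronasal receptor genes above 0, of 1433, against 2 to 11 in replicates 3 to 6. Replicate 2 also held the largest share of mitochondrial messages and replicate 1 the smallest. The shares, counts and measures of spread that summarise the libraries are therefore also given for replicates 3 to 6 alone, while list counts and single genes are given over all 6.

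The repeat genes are shown first, because 2 of them had the highest means of all nuclear protein-coding genes, yet both were low in replicates 4 to 6. There were 12 genes whose transcript shared at least 10% of its 16-base words with Gm10800, a predicted gene on chromosome 2. The shares ran from 32.8 to 100%, and no other protein-coding gene passed 0.813%. The mouse major satellite, the main repeat of pericentromeric heterochromatin, is built of units of 234 bases. Of the 12 transcripts, 9 resembled themselves most at a shift of 234 bases, out of all shifts from 150 to 300 bases. The others were Gm10800 and Gm10801, the genes of highest mean, and Gm11168, with best shifts of 225, 231 and 237 bases. At 234 bases these had 43.0, 36.7 and 32.9% identity with themselves, against at least 62.4% in the 9. The longest word present in all 12, called the core, had 30 bases, so its presence in the 12 holds by definition. It was in none of the other protein-coding genes, of 21839 searched, but the 12 were themselves chosen by shared words. Stretches of 120 bases around the core, from GENCODE M21 transcripts on GRCm38, are printed for 3 of the genes. The core is in capitals, and the stretches illustrate the sequence that these genes share. The coordinates are those of the gene, and the stretch covers transcript bases 122 to 241 in Gm10800 and Gm21738 and 356 to 475 in Gm10719.
Gm10800 (chr2:98666547-98667301, minus strand): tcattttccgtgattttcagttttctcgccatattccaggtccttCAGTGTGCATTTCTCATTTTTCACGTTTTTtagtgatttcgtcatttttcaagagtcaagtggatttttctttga
Gm10719 (chr9:3017408-3021593, plus strand): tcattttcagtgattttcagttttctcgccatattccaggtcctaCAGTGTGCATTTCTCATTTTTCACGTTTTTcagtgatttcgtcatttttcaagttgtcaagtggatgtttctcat
Gm21738 (chr14:19415857-19418930, minus strand): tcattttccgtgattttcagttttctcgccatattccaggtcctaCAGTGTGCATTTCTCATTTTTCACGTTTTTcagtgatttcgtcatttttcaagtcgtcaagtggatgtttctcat

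Gm10800 measured 2530.1, 34380.4, 1293, 30.3, 114 and 122 scaled FPKM in replicates 1 to 6. It was highest in replicate 2, next in replicates 1 and 3, and low in the rest, a span of 1133-fold. Gm10719 measured 422, 5028, 153, 2.40, 13.9 and 17.1 scaled FPKM, and Gm21738, on a different chromosome again, measured 396, 5229.8, 184, 13.1, 24.3 and 15.9. All 12 genes were highest in replicate 2, and each was there between 10.1 and 13.9 times its level in replicate 1. Of the 12, 4 were listed at 0 in replicate 4 and 3 in replicate 5, and none in the other libraries. Together they took 3.11, 25.9, 1.38, 0.045, 0.112 and 0.159% of the nuclear protein-coding FPKM of replicates 1 to 6. Their transcripts are short, and the same genes took 0.491 and 4.46% of the estimated protein-coding reads in replicates 1 and 2. The genes share sequence, so they are not separate measurements, and the sources used here do not give how reads with several matches were shared out among them.

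Receptor genes of the nose were also listed mainly in replicates 1 and 2. Olfactory and vomeronasal receptors are large families of genes that are silent outside the nose in most cells. They were above 0 for 131, 278, 11, 3, 2 and 7 genes in replicates 1 to 6. Of these genes 34 were common to replicates 1 and 2, 26.0% of those in replicate 1 and 12.2% of those in replicate 2. For comparison, 8.23 and 18.6% of all olfactory receptors were above 0 in replicates 1 and 2, and 12.2 and 22.0% of all vomeronasal receptors. A small overlap is therefore no result about these receptors. The median receptor gene above 0 rested on an estimated 2.17 reads in replicate 1 and 2.95 reads in replicate 2. The part of this signal in the other results was not tested.

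**Figure D1:**
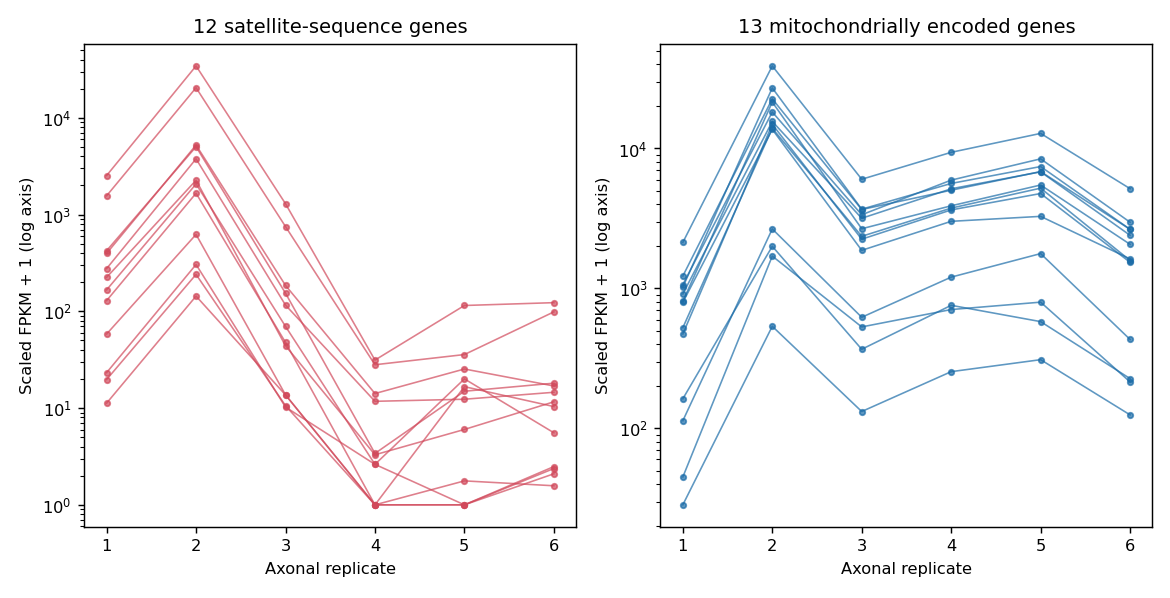
Scaled FPKM plus 1 on log axes for the 12 satellite-sequence genes and the 13 mitochondrially encoded genes, with a line joining the 6 axonal replicates of each gene (the replicates have no order). Every satellite-sequence gene peaks in replicate 2, and the mitochondrial genes run in parallel, highest in replicate 2 and lowest in replicate 1.

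Messages of the mitochondrial genome were among the most abundant coding RNA in every library. The 13 mitochondrially encoded genes, which code for subunits of the respiratory chain and of ATP synthase, had an FPKM of at least 1 in all 6 libraries. They took 4.74, 39.6, 13.6, 19.6, 23.2 and 11.3% of protein-coding FPKM in replicates 1 to 6, a mean of 18.7 ± 12.1% (SD, n = 6). Without replicates 1 and 2 the mean was 16.9 ± 5.45% (SD, n = 4). These replicates hold the lowest and the highest share, so leaving them out narrows the spread by itself. With all listed genes in the denominator the mean was 6.94%.

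The highest of them was mt-Co1, the catalytic subunit of cytochrome c oxidase, at 2130.2, 38875, 6025, 9384, 12811 and 5161 scaled FPKM. It was the highest protein-coding gene in replicates 2 to 6 and came after Gm10800 in replicate 1. The lowest of these values belonged to replicate 1 and the highest to replicate 2, 18.2 times apart. The ratios between mitochondrial genes varied less than their levels. The complex I subunit mt-Nd1 stood at 51.2 to 60.8% of mt-Co1 over the 6 libraries, and mt-Co2, mt-Co3, mt-Nd2, mt-Nd5 and mt-Cytb each kept their ratio to mt-Co1 within 1.46-fold. The ratio varied 1.65-fold for mt-Atp6, 1.75-fold for mt-Nd4, 1.84-fold for mt-Nd6 and 2.10-fold for mt-Nd4l. The ratios of 2 short messages varied most, and mt-Atp8, of 204 bases, ran from 2.06 to 8.80% of mt-Co1, lowest in replicate 1, and mt-Nd3, of 348 bases, from 5.28 to 13.8%. Gm10222, a predicted nuclear gene on chromosome 1, shared 100% of its 16-base words with mitochondrial transcripts, with mt-Nd4l the closest. It measured 27.4, 542, 131, 259, 309 and 119 scaled FPKM against 27.4, 536, 131, 253, 309 and 124 for mt-Nd4l itself. The values nearly match in every library, and reads of the 2 genes cannot be told apart by sequence. Gm10222 was named after its values were seen.

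**Figure D2:**
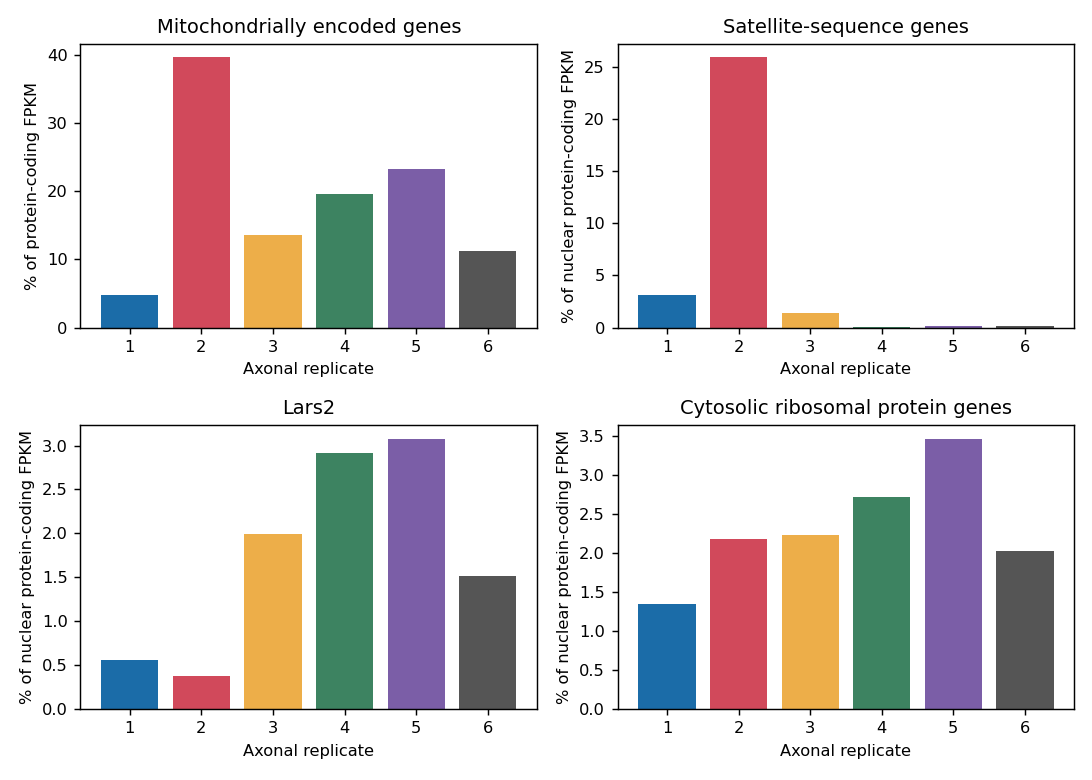
Bars give, for each of the 6 axonal replicates, the share of protein-coding FPKM in mitochondrially encoded genes and the shares of nuclear protein-coding FPKM in satellite-sequence genes, in Lars2 and in cytosolic ribosomal protein genes. Replicate 2 has the highest mitochondrial and satellite shares, and Lars2 and ribosomal protein genes are highest in replicate 5. The abundant Rpl41 gene is not counted in the ribosomal protein share.

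Among the nuclear genes, abundance was spread over many messages. The 100 genes of highest mean took 19.6, 40.8, 19.5, 20.5, 22.5 and 18.3% of nuclear protein-coding FPKM in replicates 1 to 6, a mean of 23.5 ± 8.59% (SD, n = 6). Replicate 2 alone was above the others, and without the satellite-sequence genes and Lars2 the mean was 18.9 ± 1.72%. Without replicates 1 and 2 it was 20.7%. There were 45 genes among the 100 most abundant of every library, and 180 in at least 1 library's 100.

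Lars2, the mitochondrial leucyl-tRNA synthetase, came after Gm10800 and Gm10801 in mean level, at 1043, 1099, 3879.9, 5777, 6575 and 2804 scaled FPKM. It was low in replicates 1 and 2 and higher in the rest, where it took 1.51 to 3.08% of nuclear protein-coding FPKM. A non-coding gene on chromosome 17, Gm26924, measured 69596, 86681, 198065, 226135, 275510 and 132246 scaled FPKM and was low and high in the same libraries. Gm26924 was named after its values were seen, and whether its reads were assigned to Lars2 was not tested.

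Next came messages of the ribosome and the cytoskeleton. Rpl41, the smallest ribosomal protein, measured 1311, 1801 and 3796 scaled FPKM (lowest, median and highest), the highest in replicate 2. Tmsb10, a thymosin that binds actin monomers, ran from 1069 to 3016 around a median of 1639. Actb, the cytoplasmic beta actin whose message is the best known example of axonal localization, was far more even, at 1346, 1378, 1932, 1699, 1808 and 1471 scaled FPKM. Tuba1a, the main alpha tubulin of growing neurons, had 560.2, 983 and 1476 as lowest, median and highest, and Tubb5, a beta tubulin, 369, 452 and 569.

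Other leading messages belong to iron storage, signalling and translation. Fth1, the heavy chain of ferritin, measured 341, 1528, 939, 1394, 1204 and 603 scaled FPKM. Ftl1, the light chain, measured 221, 699, 523, 777, 665 and 279. Both chains of the same particle were low in replicates 1 and 6. Eef1a1, the elongation factor that brings aminoacyl-tRNA to the ribosome, kept within 701 and 946, and Calm3, a calmodulin gene, within 559 and 947. Ngfrap1, whose product binds the p75 neurotrophin receptor, had a mean of 1257 ± 282 (SD, n = 6), and Nnat, a small imprinted protein of the endoplasmic reticulum, 959 ± 243. Ywhae, a 14-3-3 adaptor, and Gnas, the stimulatory G protein subunit, had means of 527 ± 63.4 and 534 ± 71.5. Atpif1, the inhibitor of ATP synthase, and Cox8a, a subunit of cytochrome c oxidase, ran from 301 to 610.4 and from 324 to 658. Gm9844 was also among the 25, and a second listed gene of the same name overlaps it.

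**Figure D3:**
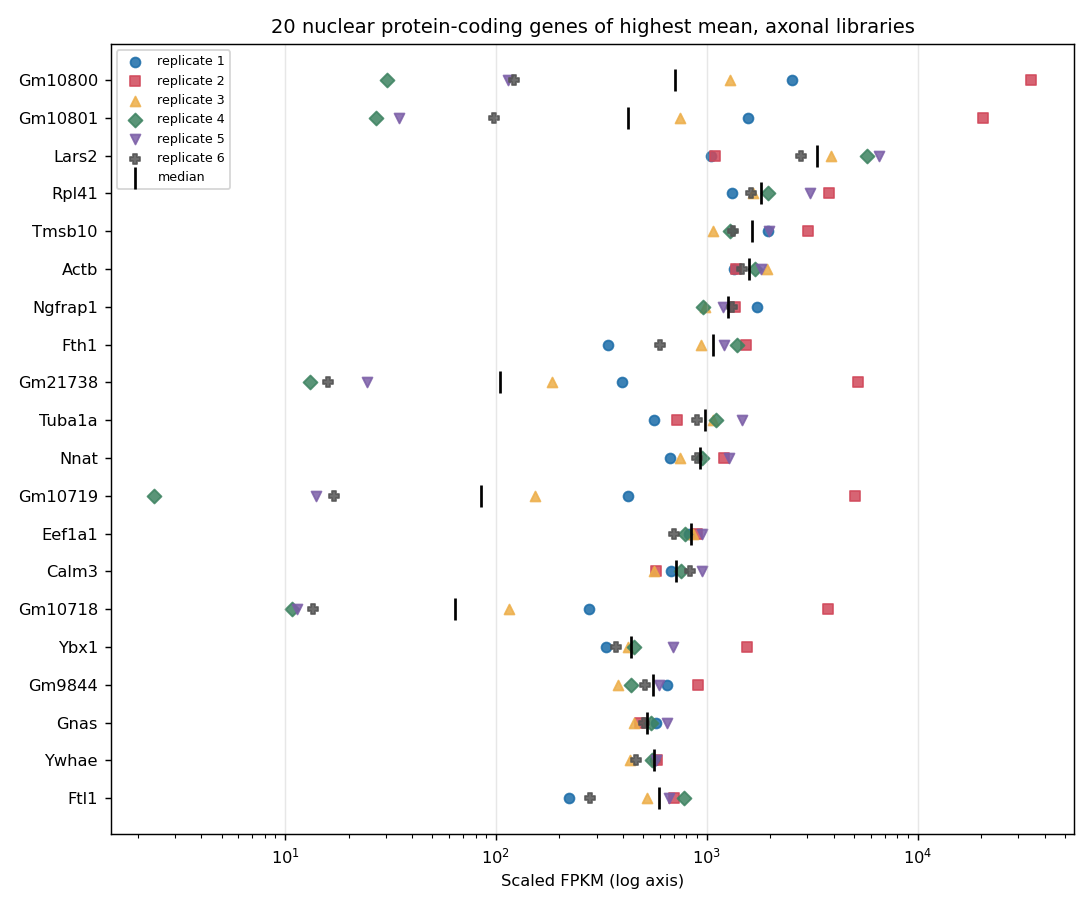
Scaled FPKM on a log axis of the 20 nuclear protein-coding genes of highest mean, with a marker for each of the 6 axonal replicates and a bar at the median. The 5 satellite-sequence genes span over 2 orders of magnitude, while Eef1a1 and Ywhae stay within 1.35-fold and Actb and Gnas within 1.45-fold.

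Across the transcriptome, 6648 protein-coding genes (29.2%) had an FPKM of at least 1 in all 6 libraries, and 7178 in none. A further 2127 missed that level in a single library, and 2769 were found in only 1. Single libraries held 9774 to 12453 such genes, the most in replicate 1, which was also the deepest. The nuclear genes found in all 6 carried 87.6 to 89.4% of nuclear protein-coding FPKM in each library. Without replicates 1 and 2 the count was 7455, and with a threshold of 5 in place of 1 it was 3383.

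The 20 lists of axonal functions were largely complete. Of 700 genes in them, 624 (89.1%) had an FPKM of at least 1 in all 6 libraries. The lists were drawn up from textbook knowledge with earlier results of these data known, so their completeness is a description. Counts of steady and high-spread genes are also given for each list, over its members with a mean of at least 20 scaled FPKM. Steady genes are those whose highest library is at most 2 times the lowest, and high-spread genes those whose highest is at least 10 times the lowest, after adding 1 to each. Of all 2226 nuclear genes at that level, 410 (18.4%) were steady and 151 (6.78%) high-spread. Without the satellite-sequence genes, 47.0% of them overlap another listed gene, and whether strand was used in counting is not stated. Overlapping genes named here include Ftl1, Stau2, Syp, Snap25, Rab3a, Eif4g2, Tpt1 and Snrpn.

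For protein synthesis, 75 of 82 cytosolic ribosomal protein genes and 39 of 42 translation factors were found in all 6 libraries. Ribosomal protein genes of the list took 1.34, 2.17, 2.23, 2.72, 3.46 and 2.02% of nuclear protein-coding FPKM in replicates 1 to 6, a mean of 2.32 ± 0.714% (SD, n = 6), and 2.61% without replicates 1 and 2. The Rpl41 gene given above is not counted in this share. Its mean was 2234 scaled FPKM, against a mean of 4958 summed over the list, so the share of all ribosomal protein genes is larger. Of the 57 at a mean of at least 20, 3 were steady and 4 high-spread. Rps15 measured 196, 607, 281, 425, 542 and 281 scaled FPKM. Rplp0, the stalk protein, measured 192, 329.5, 309, 280.4, 409.6 and 151. Rps15 was lowest in replicate 1, Rplp0 in replicate 6, and both were high in replicate 5. Many ribosomal protein genes have near-identical pseudogene copies, which could take reads from them. Of the translation factors 11 of 29 were steady and none high-spread. Eif4g2, an initiation factor for uncapped starts, ran from 297 to 582 scaled FPKM, and Pabpc1, the poly(A)-binding protein, from 234 to 518. Tpt1, the translationally controlled tumour protein, ran from 237 to 616.

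For energy, 72 of 76 nuclear-encoded respiratory chain genes and all 16 of 16 glycolytic genes were found in every library. Over all 6 libraries, the respiratory chain list took 2.07, 2.36, 2.41, 3.35, 3.66 and 2.80% of nuclear protein-coding FPKM. Cox6a1, a subunit of complex IV, measured 297, 722, 394, 367, 394 and 234 scaled FPKM. Ndufv3, a subunit of complex I, measured 314, 515, 211, 443, 304 and 284. Both were highest in replicate 2. Of 62 members at the level for spread, 6 were steady and 4 high-spread. Of glycolysis, 5 of 13 members were steady and none high-spread. Aldoa, an aldolase, had 149, 194 and 236 scaled FPKM as lowest, median and highest. Pkm, pyruvate kinase, had 128, 158 and 197.

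For the cytoskeleton, 12 of 13 tubulins, 4 of 5 neurofilament and peripherin genes, 26 of 28 microtubule regulators and 45 of 52 actin genes and regulators were found in all 6. Steady genes numbered 1 of 9, 2 of 3, 7 of 22 and 8 of 37 in these lists. Ina, alpha-internexin, measured 109, 152 and 171 scaled FPKM, above Nefl at 33.1, 44.3 and 64.2 and Nefh at 6.12, 9.29 and 17.2. Ina was above Nefl and Nefl above Nefh in every library. Crmp1, a collapsin response mediator, had a mean of 306 ± 46.0 (SD, n = 6), and Stmn2, a regulator of microtubule ends, 238 ± 65.8. Tmsb4x, another thymosin, ran from 159.7 in replicate 2 to 418 in replicate 5.

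For the growth cone and the presynaptic terminal, 20 of 20 and 39 of 41 genes were found in all 6, and 9 of 14 and 10 of 22 were steady, none high-spread. Gap43, the growth-associated protein, measured 446, 305, 363, 465, 578 and 519 scaled FPKM, lowest in replicate 2 and highest in replicate 5. Rtn3 stayed between 144 and 201, while Rtn1, its relative, was 104 in replicate 2 and 250.5 at the median. Snap25, of the fusion machinery, ran from 149 to 264, and Rab3a, the small GTPase of synaptic vesicles, from 182 to 258. Vamp2 and Syp, proteins of the vesicle membrane, had medians of 157 and 166.

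Transport and RNA handling were present throughout, and replicate 2 stood out in several members. Of 41 transport motor genes 40, and of 41 RNA transport genes 37, were found in all 6, with 3 of 26 and 3 of 21 steady and 1 high-spread in each. Kif1a, the kinesin of synaptic vesicle precursors, measured 173, 1233, 146, 253, 199.5 and 182 scaled FPKM. Kif5c, a heavy chain of conventional kinesin, measured 210.0, 589.5, 195, 206, 166 and 191. In each the value of replicate 2 lay far above the other 5 libraries, which were close together. Stau2, a double-stranded RNA-binding protein of RNA granules, measured 54.3, 775, 122, 87.1, 231 and 92.3. Ybx1, a cold-shock RNA-binding protein, measured 333, 1557, 424, 454, 689 and 372. Both were again highest in replicate 2. Dynlrb1, a dynein light chain, was even at 335 to 512, as was Caprin1, of RNA granules, at 92.2 to 146.

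For the SMN complex and Sm proteins, 10 of 20 genes were found in all 6. Of 7 members at the level for spread, 1 was steady and 1 high-spread. Snrpn, the Sm protein of neurons, was steady at 66.4 to 95.5 scaled FPKM. Snrpd2, an Sm core protein, ran from 21.2 in replicate 3 to 133 in replicate 5.

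For protein turnover, 42 of 43 proteasome and ubiquitin genes, 32 of 34 chaperones and 49 of 52 membrane traffic genes were found in all 6, with 10 of 34, 12 of 28 and 14 of 41 steady and none high-spread. Hsp90ab1 and Hsp90aa1, the cytosolic Hsp90 proteins, ran from 423 to 652 and from 190.4 to 299. Calr, an endoplasmic reticulum chaperone that binds calcium, ran from 192 to 321. Ubb, a ubiquitin gene, stayed within 174 and 234, while Psmd4, a ubiquitin receptor of the proteasome, was 46.6 in replicate 2 and at least 119 elsewhere. App, the amyloid precursor protein, was 409 in replicate 1 and at most 221.3 elsewhere.

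For excitability and trophic signalling, 33 of 45 ion channel and pump genes and 12 of 24 neurotrophic receptors and ligands were found in all 6, with 4 of 15 and 1 of 3 steady and none high-spread. Cacna1b, the pore of N-type calcium channels, measured 27.2, 42.7, 22.3, 13.9, 24.4 and 24.1 scaled FPKM. Ntrk2, which codes for the BDNF receptor TrkB, measured 17.7, 60.5, 50.6, 27.5, 20.0 and 29.5. Ntrk2 was highest in replicates 2 and 3, the libraries where the glial gene Slc1a3 was also highest, and the part of glial RNA in it was not tested. Ntrk3, the NT-3 receptor TrkC, was steady at 27.2, 20.8, 16.8, 16.6, 20.0 and 19.4. The ligand Bdnf measured 4.97, 1.70, 3.50, 2.65, 1.12 and 3.28 scaled FPKM, a low level in every library. Pls3, plastin 3, an actin bundler, measured 8.87, 14.3, 12.8, 6.44, 0 and 5.40 scaled FPKM and was listed at 0 in replicate 5. Of 38 messages known from axons in earlier work, 31 were found in all 6, with 9 of 25 steady and 1 high-spread.

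The steadiest genes of all were of moderate abundance. By the SD of log2(scaled FPKM + 1), the lowest was Cmas, which activates sialic acid, at 32.4, 32.9, 34.4, 37.2, 35.5 and 36.1 scaled FPKM. Stip1, the co-chaperone that joins Hsp70 and Hsp90, measured 86.7, 89.9, 95.5, 82.8, 97.9 and 87.9. Eif3i, of initiation factor 3, measured 63.1, 64.4, 59.7, 52.6, 59.3 and 58.3. Each of these kept its 6 libraries within 1.23-fold. The others among the 15 steadiest included Actr1a, the Arp1 subunit of dynactin, Prmt5, which methylates Sm proteins, Chtop and Ncl, nuclear RNA-binding proteins, Rbfox2, a splicing factor, Cbx5, of heterochromatin, Arf3, of the Golgi, Cap1, of actin turnover, and Cdh2, N-cadherin. Their means ran from 21.5 scaled FPKM for Rpn1, of N-glycosylation, to 121 for Arf3.

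Over genes with a mean of at least 1 scaled FPKM (12287), the median SD of log2(scaled FPKM + 1) between replicates was 0.89. Without replicates 1 and 2 it was 0.79, with the scaling and the filter redone and so over another set of genes. Over all 6 it was 0.59 over the 2226 genes at 20 or more and 0.46 over the 218 genes at 100 or more. Pearson's r between the log2 values of 2 libraries, across these 12287 genes, had a median of 0.699 over 15 pairs, from 0.558 to 0.817. On the same genes, the pairs among replicates 3 to 6 ran from 0.677 to 0.732. With the scaling and the filter redone without replicates 1 and 2, the median was 0.667, over another set of genes. Genes are not independent replicates, and the libraries differ in depth. Replicate 2 had the lowest mean r with the others, 0.575, against 0.671 to 0.736 for the rest. Among genes at 100 or more, without the satellite-sequence genes, replicate 1 was lowest instead, at 0.593, next to 0.669 for replicate 2 and 0.729 to 0.771 for replicates 3 to 6.

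**Figure D4:**
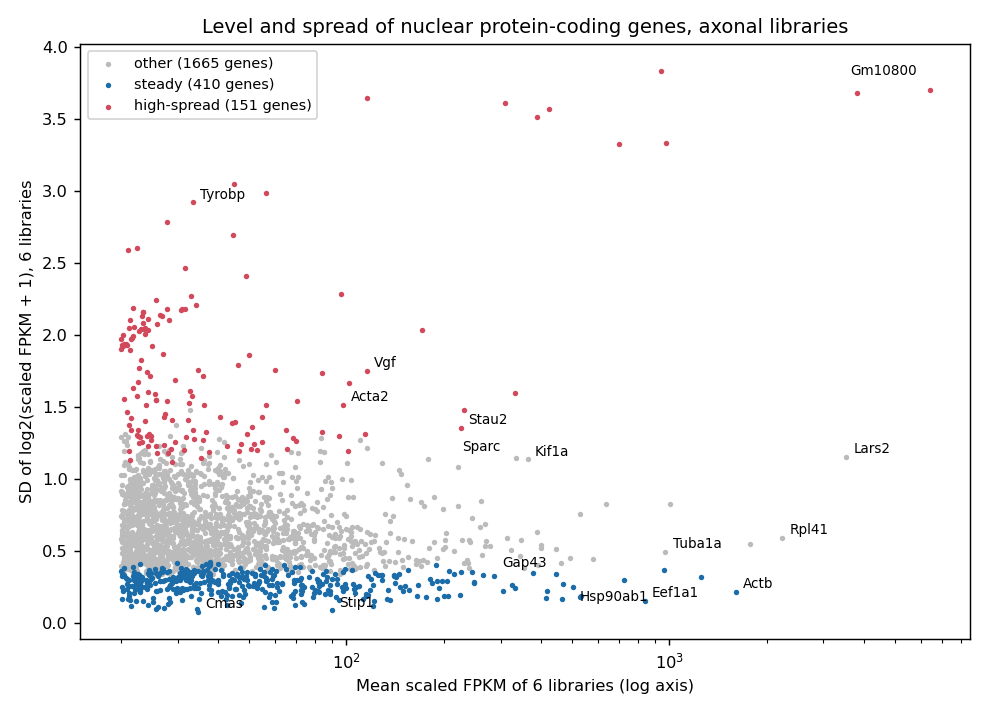
Each point is a nuclear protein-coding gene with a mean of at least 20 scaled FPKM, plotted by its mean over the 6 axonal libraries (log axis) and the SD of log2(scaled FPKM + 1) between them, with the 410 steady and 151 high-spread genes coloured. The satellite-sequence genes, Gm10800 among them, lie at the top, and Tyrobp, Acta2 and Vgf lie above most genes of their level.

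Among the 151 high-spread genes, replicate 2 was the highest library for 62, and replicates 1, 3, 4, 5 and 6 for 10, 21, 13, 30 and 15. The 62 hold the 12 satellite-sequence genes, which are not separate measurements, and some others reached the mean of 20 only through replicate 2. The highest library was not counted over all 2226 genes, so the 62 have no share to be set against. Of the 151, 45 were at 0 in at least 1 library, and 102 had at least 30 estimated reads on average. Without replicates 1 and 2 there were 68 high-spread genes (3.15%), of which 52 were also among the 151, and 854 steady genes (39.6%), of which 401 were among the 410. Without replicate 2 alone the counts were 96 and 702. Apart from the scaling and the filter, which were redone, the ratio of highest to lowest can only stay or shrink with fewer libraries. More steady and fewer high-spread genes thus partly follow from the rule, and no other pair of libraries was left out.

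Beside the 12 satellite-sequence genes, 50 high-spread genes were highest in replicate 2. Stau2 was among them, as were Slc1a3, the glial glutamate transporter, at 151 scaled FPKM, and Mfsd2a, a lipid carrier, at 136. The 50 spanned a median of 49.3 kb on the genome, against 22.5 kb for all genes at that level without the satellite genes and 10.7 kb for the 89 high-spread genes highest in another library. Of the 50, 26 overlapped another gene (52.0%), against 47.0% of all genes at the level. Some of the 50 reached that level only through replicate 2, such as Dennd1b, at 121 scaled FPKM there and at most 18.4 elsewhere. The span and the overlap were not taken without such genes, so both may partly describe genes that replicate 2 let in. Other members, named after their values were seen, were Igfbp5 and Igfbp2, binding proteins of insulin-like growth factors, at 280.4 and 232, and Rps21 at 183.

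Replicate 2 was also the lowest library for the most high-spread genes, 39 of the 151, against 22, 24, 23, 16 and 27 for replicates 1, 3, 4, 5 and 6. The lowest library was not counted over all 2226 genes either, so the 39 have no share to be set against. Some of those lowest in replicate 2 are named here. Vgf, a granule peptide precursor that neuronal activity and neurotrophins induce, measured 435, 14.2, 35.6, 39.7, 29.4 and 139 scaled FPKM, high in replicates 1 and 6 and lowest in replicate 2. Ptprn, a membrane protein of dense-core granules, measured 80.0, 6.14, 17.1, 19.4, 9.44 and 31.6, with the same libraries highest and lowest. Tac1, the precursor of substance P, measured 68.5, 1.83, 12.9, 16.7, 37.0 and 8.72. Sst, somatostatin, measured 47.6, 0, 57.8, 27.3, 34.8 and 22.8. Both were lowest in replicate 2, while Tac1 was highest in replicate 1 and Sst in replicate 3.

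Genes highest in the remaining libraries were of several kinds. Mrpl54, a mitochondrial ribosomal protein, was highest in replicate 5, at 27.0, 0, 21.5, 21.7, 92.5 and 22.6 scaled FPKM. Mrpl21, another, measured 22.7, 0, 20.7, 9.71, 81.7 and 24.3, and both were listed at 0 in replicate 2 and highest in replicate 5. Pfdn5, of the chaperone prefoldin, measured 9.07, 13.8, 0, 18.9, 84.4 and 14.7. A further mitochondrial ribosomal protein, Mrpl33, was highest in replicate 6, at 21.3, 24.0, 0, 46.0, 24.8 and 68.5, listed at 0 in replicate 3. Chmp2a, of membrane scission, measured 15.4, 0, 28.0, 14.1, 22.5 and 61.8. At their means these genes rested on few reads, an estimated 10.3 for Mrpl54 and 11.2 for Chmp2a. Replicate 3 led for the cell cycle kinase Cdk1, at 9.40, 0, 99.8, 23.4, 17.6 and 4.35. It also led for Thbs1, a matrix protein, at 72.8, 60.0, 162, 42.0, 44.9 and 11.7.

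Messages of cells other than neurons were present at low shares, and in bulk RNA fewer cells of a type and less RNA per cell cannot be told apart. The glial, fibroblast, contractile, endothelial and macrophage lists together took 0.698, 0.671, 1.03, 0.738, 0.753 and 0.335% of nuclear protein-coding FPKM in replicates 1 to 6, a mean of 0.704 ± 0.223% (SD, n = 6), and 0.714% without replicates 1 and 2. The denominator holds the satellite-sequence genes, which lowers the shares of replicate 2. As summed scaled FPKM the same lists had 1304, 1976, 2012, 1463, 1609 and 620 in replicates 1 to 6. The pan-neuronal list took 1.12, 0.572, 0.870, 0.997, 1.08 and 1.26% of nuclear protein-coding FPKM. Replicate 6 was highest for the pan-neuronal list and lowest for the sum of the others. Taken singly, of those lists the fibroblast list was lowest in replicate 6, astrocyte, Schwann cell and macrophage lists in replicate 1, oligodendrocyte in replicate 2, contractile in replicate 4 and endothelial in replicate 5. Without the satellite-sequence genes and Lars2 in the denominator, the oligodendrocyte list was lowest in replicate 1 instead, at 0.00919% against 0.0109% in replicate 2.

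Of the astrocyte and radial glia markers, 16 of 20 were found in all 6 libraries. Fabp7, the fatty acid binding protein of radial glia, measured 7.10, 143, 113, 122, 176 and 50.9 scaled FPKM. The glutamate transporter Slc1a3 measured 9.44, 151, 75.3, 49.3, 42.6 and 10.9. Gfap, the astrocyte filament, measured 0.616, 10.9, 24.5, 16.1, 4.72 and 2.06. All 3 were lowest in replicates 1 and 6. Of the oligodendrocyte lineage 2 of 14 were found in all 6, Olig1, a transcription factor, at 4.51, 3.33, 5.98, 25.6, 15.4 and 15.1, and Cnp, of the myelin sheath, at 1.73, 13.8, 1.84, 7.89, 5.31 and 2.31. No Schwann cell marker of 13 was.

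Fibroblast and contractile genes were carried by a few messages. Of 20 fibroblast and matrix markers 4 were found in all 6, and Sparc, a secreted matrix protein, measured 463, 539, 513, 195, 229 and 68.4 scaled FPKM, high in replicates 1 to 3 and lowest in replicate 6. Fn1, fibronectin, measured 92.5, 68.7, 63.5, 28.3, 42.1 and 8.20, also highest in replicates 1 to 3 and lowest in replicate 6. The fibrillar collagens that define fibroblasts were near 0: Col1a2 and Col3a1 stayed below 1, and Col1a1 measured 5.91, 1.22, 0.729, 0.552, 2.81 and 0. Of 12 contractile markers 6 were found in all 6. Acta2, smooth muscle actin, measured 90.2, 95.4, 168, 9.19, 171 and 53.6. Tagln, transgelin, measured 49.9, 45.6, 115, 14.4, 94.6 and 8.60, and both genes were highest in replicates 3 and 5. Acta2 was lowest in replicate 4 and Tagln in replicate 6. Sparc and Acta2 thus did not rank the libraries alike, and the part of contaminating cells in either was not tested.

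Macrophage markers varied widely. Of 15, 2 were found in all 6, but all 15 reached an FPKM of 1 in at least 1 library, with 3, 9, 11, 14, 10 and 11 in replicates 1 to 6. Lyz2, lysozyme, measured 1.29, 2.86, 41.0, 155, 75.8 and 17.2 scaled FPKM. Tyrobp, a signalling adaptor of myeloid cells, measured 0, 0, 7.67, 87.0, 96.1 and 9.67. Replicates 4 and 5 were highest for both and replicates 1 and 2 lowest. Both rested on few reads, an estimated 6.11 on average and at most 17.7 for Tyrobp, and 18.4 on average for Lyz2. Cd68, a lysosomal protein of macrophages, measured 3.03, 6.87, 8.62, 45.4, 6.78 and 16.3. Trem2, a receptor that signals through Tyrobp, measured 0.772, 0, 8.70, 28.6, 7.93 and 7.52, and for Cd68 and Trem2 replicate 4 alone was far above the rest. Outside the list, Ctsl, a lysosomal protease, was also highest in replicate 4, at 19.4, 12.8, 57.1, 159, 50.8 and 29.1. So was Gpnmb, a glycoprotein of lysosome-rich cells, at 1.93, 5.71, 30.7, 102, 5.49 and 4.31. Apoe, named after its values were seen, measured 26.8, 257, 552, 493, 408 and 264, and astrocytes make it too.

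Other lists were sparse. None of 16 skeletal muscle and none of 12 endothelial markers was found in all 6, and Myf5 and Myf6, muscle regulators, were listed at 0 throughout. Of 11 erythroid genes 1, the embryonic globin Hbb-y, was found in all 6, at 1.23, 16.4, 6.54, 4.95, 6.31 and 20.6 scaled FPKM, highest in replicates 6 and 2. Of 20 proliferation genes 6 were, among them Pcna, the sliding clamp of replication, at 21.4 to 27.8, and Mki67, of dividing cells, at 3.64, 2.15, 24.9, 11.9, 9.93 and 3.52, highest in replicate 3. Of 4 Y-linked genes 1 was, and the list's share ran from 0.00476 to 0.00868% of nuclear protein-coding FPKM.

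Of 20 messages that mark spinal neurons other than motoneurons, 13 were found in all 6 libraries. Gad1, which makes GABA, measured 74.2, 26.3, 36.9, 37.2, 71.3 and 134 scaled FPKM. Slc32a1, the vesicular carrier of GABA and glycine, measured 39.3, 7.76, 9.28, 10.5, 20.9 and 30.2. Slc6a5, the neuronal glycine carrier, measured 27.2, 6.14, 12.9, 8.34, 14.8 and 33.6. All 3 were highest in replicates 1 and 6 and lowest in replicate 2. Marker lists differ in length and in their genes' usual levels, so these counts do not give the share of each neuron type.

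**Figure D5:**
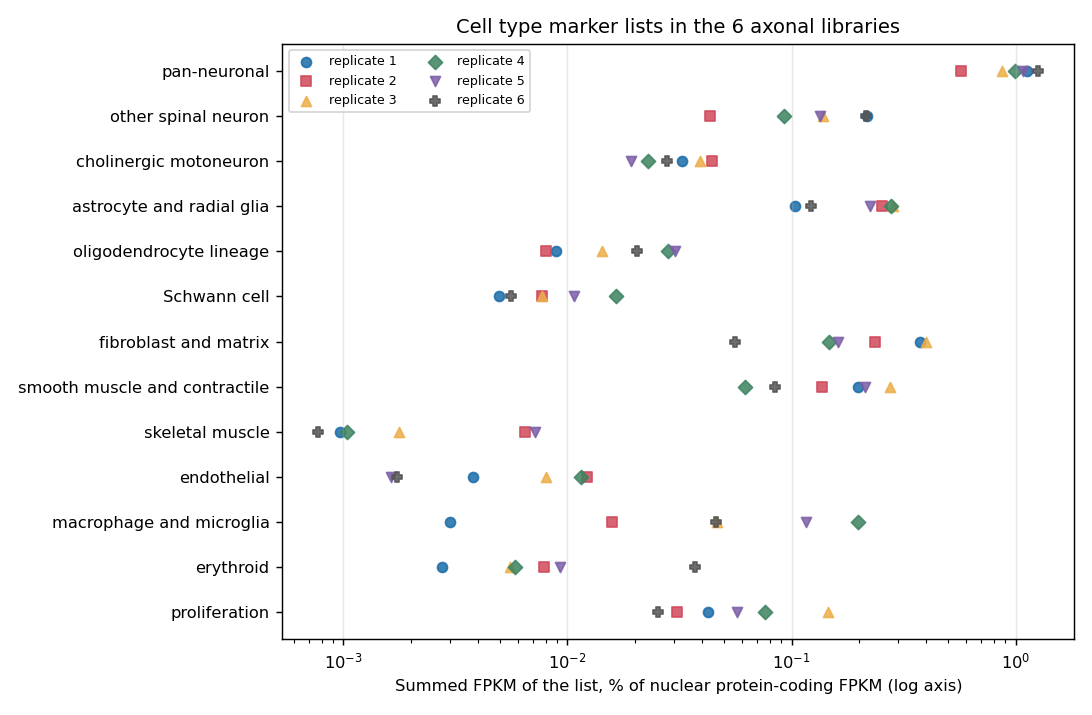
Summed FPKM of each cell type marker list as a share of nuclear protein-coding FPKM (log axis), with a marker for each of the 6 axonal replicates. Pan-neuronal markers lie at 0.572 to 1.26%, all other lists are lower, and the macrophage list spreads widest, from 0.00299 to 0.198%.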

How the data were processed

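The authors deposited 1 table per library with an FPKM value for each gene, and the submitters' processing notes name Cufflinks 2.2.1, FastQC 0.10.1 and the GRCm38 build. The sources used here do not give the aligner or the treatment of reads with several matches. Only the 6 axonal libraries and genes typed as protein coding were used. FPKM were divided by a median-of-ratios factor over 7599 nuclear genes above 0 in all 6 libraries (0.736 to 1.68), and the spread is the SD of log2(scaled FPKM + 1). A gene counted as found at a deposited FPKM of at least 1, and spread classes used means of at least 20. A listed 0 can be a missed low estimate. Read numbers were estimated from the step between low values, and 69.6 to 73.5% of values of up to 5 reads lay within 0.05 of a whole number, so no count model was run. No comparison between groups was tested. Values that stand apart within the 6 libraries were found with Dixon's limit, on percentages for shares and on log2(scaled FPKM + 1) for genes. The spread calculation was tested on simulated data. The libraries described and the 34 gene lists (939 symbols, 936 matched) were chosen with earlier results of these data known. Genes were named by rule: the 13 mitochondrial genes, the 25 of highest mean, the 15 most and 15 least steady, up to 4 leading and 4 defining members a list, up to 5 leading high-spread genes a library, and the genes the study is about. Some genes this rule picks are not reported here. Alternatives changed the scaling, the added constant, the filters, the detection threshold and the libraries. Computation used Python 3.11.15, numpy 2.4.6 and pandas 2.3.3.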

Additional observations from a re-analysis of the deposited data

Results flagged for a closer look

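Each value here lay apart from the other 5 libraries, because its gap to the nearest one, divided by the whole range, passed Dixon's 95% limit for 6 samples. Chance alone does this for about 1 group in 20. The gap and the range were taken on the percentages for shares and on log2(scaled FPKM + 1) for genes. The gene values printed below are scaled FPKM, so the ratio cannot be read from them directly. The log scale gives more weight to low values, and not all of these genes would pass on the printed values. Of 40 shares of FPKM examined 8 stood apart, 7 of them in replicate 2, and of 219 named genes with a mean of at least 1 scaled FPKM 18 did, 9 of them in replicate 2. Some of the named genes were chosen for their high spread, so their count cannot be read against the chance rate.

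Replicate 2 was high for the share of nuclear protein-coding FPKM in satellite-sequence genes, at 25.9% against 3.11% in the next library, and for the share in the 100 most abundant genes, at 40.8% against 22.5%. It was low for 5 function lists. Translation factors took 1.27% there against 1.67% in the next lowest library, glycolysis 0.299% against 0.485%, actin and its regulators 2.36% against 2.99%, growth cone proteins 0.456% against 0.890%, and membrane traffic 1.07% against 1.70%. The shares have a common denominator that holds the satellite-sequence genes, so a high satellite share lowers the others. Without the satellite-sequence genes and Lars2, replicate 2 was no longer lowest for translation factors, at 1.72% against 1.70% in replicate 6, or for actin and its regulators, at 3.20% against 3.04%. It stayed lowest for glycolysis at 0.405%, growth cone proteins at 0.618% and membrane traffic at 1.45%. The erythroid list was high in replicate 6, at 0.0370% against 0.00927%.

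Among genes, replicate 2 was high for the kinesins Kif1a (1233 scaled FPKM, next 253) and Kif5c (589.5, next 210.0). It was low for Psmd4, a proteasome subunit (46.6, next 119), Rtn1, a reticulon (104, next 226), and the growth factor Igf1 (12.7, next 37.6). Listed at 0 in replicate 2 alone were Sst (next 22.8), Chmp2a (next 14.1), Fam171a2 (next 14.4) and Mrpl54 (next 21.5). Elsewhere, App was high in replicate 1 (409, next 221), Actr1a in replicate 6 (64.6, next 56.2), and Mylpf, a myosin light chain of skeletal muscle, was above 0 only in replicate 5 (14.6, all others 0). Eif2s3y was low in replicate 1 (1.07, next 5.14). Listed at 0 in a single other library were Pls3 and Ciapin1 in replicate 5 (next 5.40 and 16.2), Lmo4 in replicate 6 (next 13.8), Mrpl33 in replicate 3 (next 21.3) and Pdgfra in replicate 1 (next 2.76).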

How the results depend on the processing

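Of 100 alternatives to the reported summaries, 81 left the value within the limit used and 19 moved it. The limit was 1 SD between replicates for a mean share and 1.5 times for a count. For the median r it was 1 SD between library pairs. For the median SD it was 1 SD between libraries of each library's median absolute deviation from the gene means. The summaries describe a single group and have no direction that could reverse. The causes were not tested beyond what each alternative leaves out. Genes found in all 6 libraries (6648) numbered 3383 at a threshold of 5 and 6697 to 7382 with each replicate left out. The median SD of log2 values (0.89) was 1.13 and 0.49 with 0.1 and 5 added, 0.77 with no filter and 0.65 at means of at least 10, and the median r (0.699) was 0.593 with 0.1 added, 0.796 with no filter and 0.596 at means of at least 10. Steady genes (410) numbered 477 to 702 with each replicate left out, 702 without replicate 2, 854 without replicates 1 and 2, 151 as deposited, 174 at means of at least 50 and 220 among genes that overlap no other. High-spread genes (151) numbered 96 to 149 with each left out, 96 without replicate 2, 68 without replicates 1 and 2, 236 as deposited, 76 with 5 added, 36 at means of at least 50 and 79 among genes that overlap no other. Leaving out libraries tends by itself to raise the count of steady genes and lower that of high-spread genes. Of the steady genes 45 of 151 as deposited, and of the high-spread genes 118 of 236, were shared with the reported sets. With each replicate left out, the mitochondrial share was 14.5 to 21.5%, the ribosomal protein share 2.09 to 2.52% and the share of the 100 leading genes 20.4 to 24.6%. As deposited, 11 of 236 named genes moved beyond their spread. No paired analysis was possible because the libraries form a single group, with no comparison between groups to pair. An estimated 218294 to 729492 reads a library limit what low genes can show.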
